A study of Mus musculus with 10 samples.

Results

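The regions described here are stretches of open chromatin at transcription start sites that were called in every one of 5 deposited ATAC-seq peak lists from Myc-CaP cells. The distinct intervals of the 5 lists were merged where they overlapped by at least 1 bp, and a merged region was kept when all 5 lists overlapped it and it overlapped 1 kb on either side of a transcript start in GENCODE M21 (mm10). This rule kept 20074 of 211107 merged regions, or 9.51%. They are a subset of the 85377 regions called in all 5 lists, of which the other 65303 lay away from start sites, and of the 33552 start-site regions called in any list. The members held starts of 12898 of the 21951 annotated protein-coding genes, 58.8%.

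Myc-CaP is a prostate cancer line from an FVB mouse that carries a c-Myc transgene driven by the probasin promoter, which responds to androgen in prostate epithelium. Every group was this single cell line. Per the labels, cells were left untreated (Ctrl) or received oxaliplatin at 2 µM (Oxali), cisplatin at 2 µM (Cispl), interferon-γ (IFNγ, 1000 pg in the labels and 1 ng/ml in the methods) or oxaliplatin with IFNγ at these amounts (Oxali + IFNγ, the combination), and were sampled at 48 h. The series holds 10 libraries, 2 per group, whose reads the authors pooled before peaks were called, so each group is 1 list. No standard deviation between replicates can be given and no test was run on any difference below. All 4 treated lists are set against the same control list.

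ATAC-seq marks open chromatin by the cuts that a transposase makes in DNA not covered by nucleosomes. Start sites of active genes are among the most open places in a genome. Many mouse promoters, above all those of broadly used genes, lie in stretches rich in the CpG dinucleotide and bind factors of the SP and KLF families, whereas CpG-poor promoters are more often used in particular cell types or conditions. Oxaliplatin and cisplatin form platinum adducts that link the bases of DNA to each other. IFNγ is a cytokine that acts through a receptor at the cell surface and, further on, interferon regulatory factors. In a bulk sample, a more open region and a larger share of cells in which it is open cannot be told apart.

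The level of a region is the pileup at its highest summit, that is the number of read ends covering that base after the extension MACS2 applied, divided by the genome background of the same list. A level of 10 therefore means 10 times the average coverage of the genome in that list. The genome background was 12.1 in untreated cells, 11.3 after Oxali, 13.8 after Cispl, 9.62 after IFNγ and 12.9 after the combination, so the IFNγ list was the shallowest. The 5 lists held between 118949 and 174709 distinct intervals. The Cispl list ends at a −log10 p of 2.99, against 2.00 in the others, so that weak regions are missing from it. Of the members, 19859 (98.9%) had a q-value of at most 0.01 in every list and 17113 (85.2%) had a mean pileup of at least 100. Where 4 values follow each other without names, their order is Oxali, Cispl, IFNγ and the combination, and 5 values start with Ctrl. Intervals given for a single region are 95% exact binomial ones and cover counting error only.

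Markers of the labelled cell type were partly found among the members. Of 8 epithelial and prostate markers, 4 had a member, among them Krt8, an epithelial keratin, at a control level of 88.8, and Foxa1 and Hoxb13, transcription factors of prostate epithelium, at 98.6 and 93.8. Epcam, Cdh1 and Krt18 had no member. Cdh1 had no start-site region in any list, Epcam had one with IFNγ alone, and Krt18 had one in Ctrl and Oxali. Of 8 markers of other cell types, 2 had a member. Among them was Col1a1, a fibroblast collagen, at a control level of 49.9, whose level was 37.2, 31.9, 34.5 and 28.4 with Oxali, Cispl, IFNγ and Oxali + IFNγ. The part of other cells in the results was not tested.

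Of the regions that departed most from the rest, 8 are shown first as examples. Each sequence is 121 bases of GRCm38 (mm10), plus strand, read 5′ to 3′, and holds the control summit. Capitals mark exact matches on either strand to GGGCGGGG, which SP and KLF factors bind, to TGANTCA, which the AP-1 factors Fos and Jun bind, to the TATA box with the letters TATAAA, or to GGGANTTTCC, which NF-kB binds. The reference is the C57BL/6J genome, whereas Myc-CaP is of FVB origin. The first 3 lie beside the outermost annotated start of a gene and were among the 8 regions furthest below the general level with the 3 treatments that contain platinum.
Csnk1g2, chr10:80622357-80622477: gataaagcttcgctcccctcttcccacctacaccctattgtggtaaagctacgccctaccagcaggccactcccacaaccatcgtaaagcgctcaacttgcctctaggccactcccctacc
Usp28, chr9:48985067-48985187: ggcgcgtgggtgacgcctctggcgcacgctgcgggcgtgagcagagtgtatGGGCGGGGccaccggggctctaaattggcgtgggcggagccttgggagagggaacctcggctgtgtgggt
Vps26a, chr10:62486806-62486926: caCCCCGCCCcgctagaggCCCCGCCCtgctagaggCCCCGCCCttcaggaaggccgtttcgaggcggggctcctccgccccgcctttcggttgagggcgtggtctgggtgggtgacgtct
In these windows Usp28 had 12 CG dinucleotides at 70.2% GC, Vps26a 12 at 72.7% and Csnk1g2 4 at 56.2%. Vps26a held 3 SP/KLF matches and Usp28 1.

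The next 3 stood far above other regions with platinum. Tchp and Pfkl were among the 8 furthest above the general level, and Slc13a4 was first among members of equal strength. All lie inside genes, with the summit 232 to 459 bp from an internal start of a transcript annotated as a retained intron.
Tchp, chr5:114719165-114719285: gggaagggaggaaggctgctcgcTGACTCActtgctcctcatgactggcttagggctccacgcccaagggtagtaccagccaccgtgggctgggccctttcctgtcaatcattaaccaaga
Pfkl, chr10:77991884-77992004: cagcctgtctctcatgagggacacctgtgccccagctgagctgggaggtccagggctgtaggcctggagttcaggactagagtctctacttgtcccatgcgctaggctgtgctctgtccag
Slc13a4, chr6:35288516-35288636: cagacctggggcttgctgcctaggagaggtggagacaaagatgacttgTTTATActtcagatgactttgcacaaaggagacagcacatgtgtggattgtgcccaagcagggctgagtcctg
Their CG counts were 3, 1 and 0. Tchp held an AP-1 match and Slc13a4 a TATA match on the minus strand. The last 2 stood furthest above the general level with IFNγ among regions in protein-coding genes.
Nfe2l1, chr11:96822753-96822873: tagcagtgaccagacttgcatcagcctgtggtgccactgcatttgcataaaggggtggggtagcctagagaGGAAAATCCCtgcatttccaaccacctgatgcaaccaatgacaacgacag
Gtf2h2, chr13:100461552-100461672: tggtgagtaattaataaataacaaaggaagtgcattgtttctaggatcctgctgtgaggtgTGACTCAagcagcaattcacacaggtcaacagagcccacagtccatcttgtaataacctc
Nfe2l1 had 1 CG and an NF-kB match on the minus strand, and Gtf2h2 had 0 and an AP-1 match. A match is a run of letters and not a measured binding site, and the lack of one says only that these letters are not in this window.

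Start-site regions had lower levels in every treated list than in control cells. The median level was 46.0 in untreated cells, 41.7 after Oxali, 36.1 after Cispl, 35.0 after IFNγ and 34.2 after the combination. The upper part of the range moved most: the upper quartile was 106 in Ctrl against 77.2, 66.2, 70.5 and 56.8, while the lower quartile was 12.1 against 14.7, 14.0, 10.1 and 14.5. Levels therefore lay closer together after treatment, and the upper quartile was 8.72 times the lower in untreated cells, 5.24 times after Oxali, 4.74 after Cispl, 6.99 after IFNγ and 3.92 after the combination.

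Summed over all members, the level was 76.5% of the control sum after Oxali, 65.9% after Cispl, 69.1% after IFNγ and 59.1% after the combination. The 65303 regions away from start sites did not share this pattern, with sums of 116%, 99.5%, 86.6% and 113% of control. Their median level was 9.23 in untreated cells, 12.3 after Oxali, 11.7 after Cispl, 7.90 after IFNγ and 12.5 after the combination. With IFNγ alone, both kinds of region were thus lower than in control cells.

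**Figure D1:**
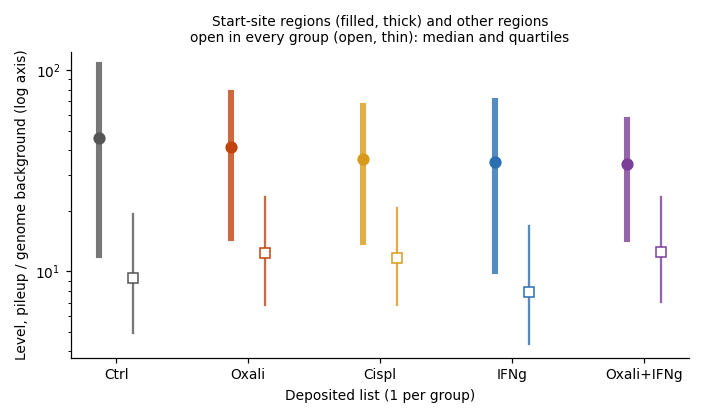
Level (summit pileup over the genome background, log axis) in each of the 5 lists for the 20074 start-site regions and the 65303 regions called in all lists away from start sites; the points are medians and the bars run from the lower to the upper quartile over regions. The start-site median goes from 46.0 in Ctrl to between 34.2 and 41.7 in the treated lists, and its upper quartile from 106 to between 56.8 and 77.2.

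Per region, the median log2 ratio of the treated to the control level was -0.25 after Oxali (quartiles -0.53 and 0.21), -0.40 after Cispl (-0.72 and 0.11), -0.43 after IFNγ (-0.65 and -0.17) and -0.47 after the combination (-0.97 and 0.18). The level was below control in 65.4%, 70.6%, 85.9% and 69.3% of members. IFNγ thus gave the narrowest spread of ratios, whereas the lists with platinum held regions well above and well below control. In regions away from start sites the medians were 0.26, 0.17, -0.19 and 0.27.

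A change of at least 1.5-fold was used to count regions, as no test was possible. With Oxali, 4030 members (20.1%) were lower, where 8.39% of the 85377 regions called in all lists were, and 2702 (13.5%) were higher, where 27.7% were. With Cispl, 7293 members (36.3%) were lower against 13.9%, and 2275 (11.3%) were higher against 23.1%. IFNγ had 6362 lower members (31.7%) against 19.4% and 264 higher ones (1.32%) against 3.7%. With Oxali + IFNγ, 9003 (44.8%) were lower against 16.1% and 2847 (14.2%) higher against 29.3%. Members were chosen from the same lists that give these ratios, so the shares describe the members and support nothing further.

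These ratios depend on what the lists are scaled to. Setting the median of regions away from start sites to 0 shifts every log2 ratio by -0.26 after Oxali, -0.17 after Cispl, 0.19 after IFNγ and -0.27 after the combination, and leaving the pileups unscaled shifts them by -0.11, 0.18, -0.34 and 0.09. The median of the members stayed below 0 under both. Among changed members, the lower share was 59.9% with Oxali, and 83.6% or 72.7% under those scalings. For Cispl it was 76.2%, and 57.1% unscaled, and for IFNγ 96.0%, and 81.2% on the regions away from start sites. By the deposited fold over the local background, it was 33.3% with Oxali and 56.7% with Cispl. Differences between groups of regions within a list, which make up most of what follows, are not moved by any shift.

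Between treated lists, the members were lower with Cispl than with Oxali by a median of -0.18 in log2, against -0.10 away from start sites. Adding IFNγ to Oxali went with a median log2 ratio of -0.26 in members and 0.00 away from start sites, and 219 members (1.09%) were at least 1.5-fold higher and 3099 (15.4%) lower. Of all regions called in the 5 lists 2.33% were higher and 5.38% lower, and away from start sites 1767 were higher and 1493 lower. Against IFNγ alone, the combination had a median of -0.10 in members and 0.46 away from start sites.

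Strong start-site regions stood lower after treatment than weak ones. Members were sorted into 10 equal classes by their mean level over the 5 lists. In the weakest class, with a median mean level of 4.75, the median log2 ratio was 0.22 after Oxali, 0.33 after Cispl, -0.11 after IFNγ and 0.31 after the combination. The next class, at 8.37, was slightly higher with platinum (0.36, 0.36, -0.21 and 0.40), and from there the medians went down, levelling off in the strongest classes with IFNγ. In the fifth, at 32.2, it was -0.10, -0.27, -0.34 and -0.27. In the strongest, at 124, it was -0.58, -0.83, -0.58 and -1.08. Of the 2008 strongest members, 995, 1757, 989 and 1860 were at least 1.5-fold lower and 3, 0, 0 and 1 at least 1.5-fold higher.

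The slope was steepest with Oxali + IFNγ and least steep with IFNγ. From the weakest to the strongest class the median differed by -0.81, -1.15, -0.47 and -1.39 with Oxali, Cispl, IFNγ and Oxali + IFNγ. IFNγ already stood at -0.45 in the sixth class and changed little beyond the seventh, where it was -0.54. Over the 20074 members, Spearman's rho between the mean level and the log2 ratio was -0.61, -0.75, -0.44 and -0.71, values that share the control list and the depth of all lists on both axes. Over the 65303 regions away from start sites rho was -0.08, -0.32, -0.14 and -0.15.

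From the middle classes on, regions of the same strength away from start sites stood higher than members, in part above control. In the range of the sixth class, at a median member level of 46.3, the members had -0.30, -0.47, -0.45 and -0.59, whereas 2862 regions away from start sites had 0.09, -0.24, -0.21 and 0.01. In the range of the strongest class, 278 such regions had -0.21, -0.58, -0.31 and -0.46. The weakest classes were alike, with 0.28, 0.34, -0.05 and 0.34 away from start sites. With the deposited fold in place of the level, the strongest class was at -0.25, -0.37, -0.20 and -0.42 and the weakest at 0.19, 0.25, -0.15 and 0.24, so that the order held at a smaller size. Scaled to the regions away from start sites, the weakest class was at -0.03 after Oxali, 0.15 after Cispl, 0.08 after IFNγ and 0.04 after the combination.

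**Figure D2:**
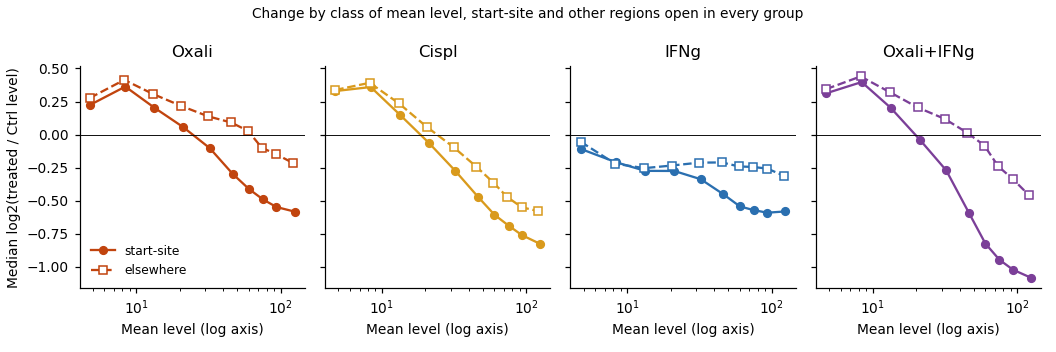
Median log2 ratio of the treated to the control level against the median mean level (log axis) of 10 equal classes of start-site regions, with regions away from start sites binned by the same limits, in 1 panel per treatment. From the second class on, the start-site lines run downward with strength, reaching -1.08 with Oxali + IFNγ in the strongest class and levelling off with IFNγ, and lie below the other line in the stronger classes.

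The limits of the definition did not coincide with a step. The 13983 members that touched a start had a median control level of 78.3 and median log2 ratios of -0.39, -0.57, -0.50 and -0.75. The 3115 members at 500 to 1000 bp from the nearest start had a control level of 12.2 and ratios of 0.16, 0.08, -0.22 and 0.11. Just outside, the 2797 regions at 1000 to 1500 bp had 11.9 and 0.18, 0.10, -0.22 and 0.17. The other limit was the call in every list. The 2165 start-site regions called in 4 lists had a median mean pileup of 60.3, close to the 58.8 of as many of the weakest members and far below the 468.8 of all members. IFNγ was the list missing for 1059 of them (48.9%) and Ctrl for 758 (35.0%), against 152, 97 and 99 for Oxali, Cispl and Oxali + IFNγ.

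Long regions were lower after treatment than short ones, largely along with their strength. The 2012 shortest members (151 to 388 bp) had median log2 ratios of 0.00, -0.01, -0.20 and -0.08, and the 2002 longest (1736 to 3398 bp) -0.45, -0.65, -0.53 and -0.87. Spearman's rho between length and the log2 ratio was -0.36 after Oxali, -0.46 after Cispl, -0.32 after IFNγ and -0.45 after the combination over 20074 members, and rho between length and mean level was 0.63. Length is that of the merged interval, so it grows with the number and reach of the calls in it. At equal strength the dependence on length was different: in the weakest class the longer members, at a median of 739 bp, had 0.40, 0.51, -0.04 and 0.48 against 0.13, 0.20, -0.18 and 0.16 for the shorter ones at 323 bp. In the strongest class, longer and shorter members had -0.59 and -0.57 after Oxali, -0.82 and -0.83 after Cispl, -0.60 and -0.57 after IFNγ and -1.13 and -1.03 after the combination.

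CpG content separated the members more clearly than length. A region was called CpG-rich when the 250 bp on either side of its control summit had an observed over expected CpG ratio of at least 0.6 and a GC content of at least 50%. By this rule 9119 members (45.4%) were CpG-rich, against 685 (1.05%) of the regions away from start sites. CpG-rich members had a median level of 104 in untreated cells, 73.9 after Oxali, 64.5 after Cispl, 67.1 after IFNγ and 52.1 after the combination, so the control was highest and the combination lowest. The 10955 CpG-poor members had levels of 14.7, 17.9, 16.7, 12.6 and 17.4, higher than control in the 3 lists with platinum and lower with IFNγ.

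As median log2 ratios, CpG-rich members were at -0.50, -0.69, -0.59 and -0.97, and CpG-poor members at 0.10, 0.02, -0.24 and 0.06. Of the CpG-rich members 3287, 5912, 4634 and 7402 were at least 1.5-fold lower and 65, 22, 3 and 49 higher. Of the CpG-poor members 743, 1381, 1728 and 1601 were lower and 2637, 2253, 261 and 2798 higher. The direction of the CpG-poor members turned with the scaling. Scaled to the regions away from start sites they were at -0.16, -0.15, -0.05 and -0.21, with unscaled pileups at -0.01, 0.20, -0.58 and 0.15, and by the deposited fold at 0.02, -0.05, -0.20 and 0.00. CpG-rich members were below 0 under each of these.

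The difference between CpG-rich and CpG-poor members remained within classes of equal strength. CpG-rich members had the lower median log2 ratio in 10 of 10 classes for each treatment, by -0.10 to -0.36 after Oxali, -0.04 to -0.48 after Cispl, -0.11 to -0.32 after IFNγ and -0.31 to -0.69 after the combination. CpG-rich regions away from start sites were also below control, at -0.30, -0.42, -0.42 and -0.56. At equal strength and CpG class, members minus regions away from start sites came to a mean of -0.14, -0.13, -0.11 and -0.22 in CpG-rich and -0.10, -0.05, -0.03 and -0.13 in CpG-poor regions. These means hide a change of sign, since in the 3 weakest CpG-rich classes members stood above the other regions by 0.29, 0.14 and 0.27 with Oxali and by 0.27, 0.08 and 0.15 with the combination. The means are smaller than the distance between the 2 kinds of region as a whole.

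**Figure D3:**
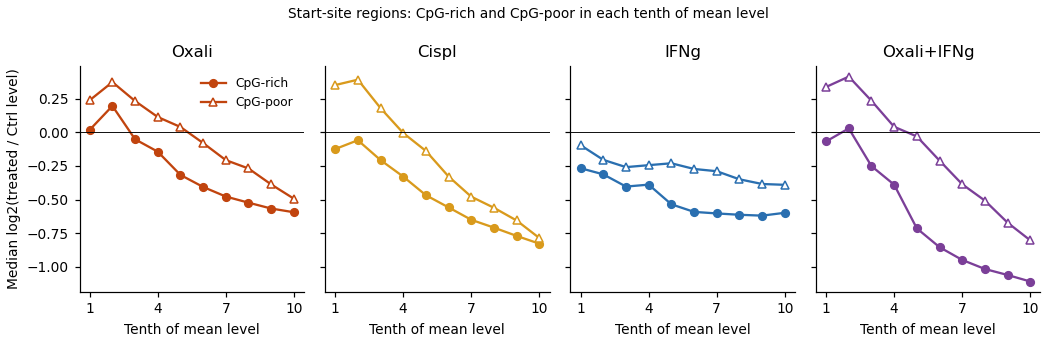
Median log2 ratio of the treated to the control level against the class of mean level (1 weakest, 10 strongest) for CpG-rich and CpG-poor start-site regions, in 1 panel per treatment. The CpG-rich line lies below the CpG-poor line in all 10 classes of each panel, with gaps of -0.04 to -0.69.

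Gene classes differed as their strength and CpG content did. The 16486 members within reach of any annotated transcript start of a protein-coding gene had a median control level of 62.1, 53.5% of them were CpG-rich, and their median log2 ratios were -0.32, -0.48, -0.47 and -0.62. The 1824 members beside long non-coding RNA starts alone had a control level of 14.2, 9.05% CpG-rich and ratios of 0.15, 0.02, -0.23 and 0.12. For 813 pseudogene starts the level was 9.89 and the ratios 0.16, 0.10, -0.22 and 0.11, and for 601 starts of small RNAs the level was 13.8 and the ratios 0.09, 0.01, -0.28 and 0.00. Reads cannot always be placed among near-identical copies, so single pseudogene and small RNA regions are uncertain. The 350 other or unclassified members had 0.20, 0.15, -0.19 and 0.18. On this scale only the IFNγ list was below control in every class. Scaling to regions away from start sites shifts the ratios by -0.26, -0.17, 0.19 and -0.27. Every class then lies below control in the lists with platinum, so the contrast depends on the scaling.

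Among the gene classes, shared promoters stood lowest, close to CpG-rich members as a whole. The 1407 members with protein-coding starts on both strands had a control level of 112, 82.8% were CpG-rich, and the ratios were -0.52, -0.72, -0.57 and -1.02. With Oxali + IFNγ 1159 of them (82.4%) were at least 1.5-fold lower and 21 higher, where 81.2% of all CpG-rich members were lower. The distance of the control summit from a start made a similar division. The 12356 members with a summit within 250 bp of a start had a control level of 82.6 and ratios of -0.41, -0.60, -0.52 and -0.80, and the other 7718 had 14.7 and 0.11, 0.03, -0.24 and 0.05. The 3588 members with no protein-coding gene were at 0.15, 0.05, -0.23 and 0.10, and at -0.11, -0.12, -0.04 and -0.16 when scaled to regions away from start sites, so that with platinum their direction turned with the scaling.

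Exact motif matches within 100 bp of the control summit were counted on both strands. An AP-1 match, the letters bound by Fos and Jun proteins, was found in 2574 members (12.8%) and in 27.6% of regions away from start sites. At equal strength, members with an AP-1 match were higher than those without by 0.37, 0.18, 0.24 and 0.48 in log2 with Oxali, Cispl, IFNγ and Oxali + IFNγ. This difference was seen in the 2332 CpG-poor members with a match, at 0.34, 0.14, 0.20 and 0.40, and was 0.01, 0.02, 0.07 and 0.04 for the 207 CpG-rich ones that could be compared. In CpG-poor regions away from start sites the differences were 0.32, 0.08, 0.23 and 0.38.

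An SP/KLF match went the other way. It was found in 4036 members (20.1%) and 1.88% of regions away from start sites, and members with it were lower at equal strength by -0.13, -0.11, -0.17 and -0.27. Within CpG-rich members the difference was -0.07, -0.05, -0.12 and -0.16, and within CpG-poor members -0.15, -0.13, -0.15 and -0.26. Lower levels were not particular to the SP/KLF letters. Within CpG-rich members, those with the letters bound by YY1 (AAGATGGCG) differed by -0.08, -0.05, -0.06 and -0.13. For the letters bound by CREB and ATF factors (TGACGTCA) the differences were -0.09, -0.06, -0.05 and -0.14. For the letters bound by ETS factors (CCGGAAGT) they were small, at -0.02, -0.01, 0.03 and 0.01. The CCAAT box bound by NFY (GCCAATC), in 1318 members (6.57%) and 1.91% away, differed by treatment: members with it were lower by -0.13 after Oxali, -0.16 after Cispl and -0.12 after the combination and higher by 0.02 after IFNγ. Within CpG-rich members the differences were -0.11, -0.13, 0.07 and -0.03, and within CpG-poor members -0.18, -0.20, -0.02 and -0.21. The letters bound by NF-kB were found in 58 members (0.289%), against 0.21% away from start sites, too few to compare by class. Those bound by interferon regulatory factors (GAAANNGAAA) were in 304 members (1.51%), against 1.99% away.

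Gene lists were then read against the members as a whole, whose median log2 ratios were -0.25, -0.40, -0.43 and -0.47 and of which 20.1%, 36.3%, 31.7% and 44.8% were at least 1.5-fold lower. In the strongest class of members 49.6%, 87.5%, 49.3% and 92.6% were. Over 25 lists, the median was below 0 in 24 lists with Oxali and in 25 with each other treatment. No list held a region at least 1.5-fold higher with IFNγ, where 264 members were. Because most of these promoters are strong, each list is also given as its departure, the distance of a region from the median of members in the same class of strength. This departure takes no account of CpG content, so for most lists it was also taken, as a choice made after seeing the data, from members of the same strength and CpG class.

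Several lists of the translation machinery stood low. Of 80 genes for cytosolic ribosomal proteins 77 had a member, with a median control level of 99.1 and log2 ratios of -0.65, -0.83, -0.64 and -1.26. At least 1.5-fold lower were 50 after Oxali, 70 after Cispl, 46 after IFNγ and 76 after the combination, and 0 were higher in any list. Their median departure within the class of strength was -0.26, -0.18, -0.10 and -0.43, or -0.18, -0.15, -0.06 and -0.34 within strength and CpG class, and by the deposited fold -0.08, -0.13, -0.05 and -0.18. Translation factors (63 of 68 genes) had -0.56, -0.74, -0.63 and -1.23, with 27, 51, 41 and 59 lower. Their departure of -0.11, -0.08, -0.08 and -0.29 became -0.07, -0.05, -0.04 and -0.24 within strength and CpG class and 0.01, -0.01, -0.03 and -0.07 by the deposited fold. Ribosomal proteins of the mitochondrion (78 of 78) lay closer to other strong regions, with 24, 43, 42 and 71 lower and departures of -0.03, -0.04, -0.11 and -0.19, which became 0.02, 0.02, 0.00 and -0.06 within strength and CpG class and 0.02, 0.01, -0.04 and -0.03 by the deposited fold. The enzymes that load transfer RNAs with amino acids (35 of 35 genes, 34 regions) had 13, 28, 17 and 33 lower and were at departures of -0.01, -0.04, -0.07 and -0.04. Within strength and CpG class they were at 0.02, 0.01, 0.02 and 0.06, and by the deposited fold at -0.01, -0.07, -0.03 and -0.03.

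Single genes of these groups show the range. The pileup at Rpl3 was 1520 in untreated cells, 636 after Oxali, 729 after Cispl, 656 after IFNγ and 431 after the combination, a log2 ratio of the level of -1.15, -1.24, -0.88 and -1.91. All treated values lay under the control, and the combination lowest. At the other end, the region shared by Rpl7 and Rdh10, an enzyme of retinol metabolism whose start lies nearest to the summit, had 1657, 1349, 1420, 1074 and 1333, and the treated lists lay nearer the control, with levels of 119.7, 103, 112 and 103 against 136. Eif1, a factor that helps to select the start codon, had 2244, 959, 1071, 734 and 555, which gave -1.12, -1.25, -1.28 and -2.10. The region shared by Gas5, a non-coding host gene of small nucleolar RNAs, and Zbtb37, a zinc finger gene, had 1851, 996, 1032, 684 and 496.

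The replication-dependent histone genes were the main list on the other side. Their 65 genes with a member, of 67 listed, shared 40 regions with a median control level of 114, among the strongest. Yet their log2 ratios were -0.19, -0.61, -0.38 and -0.48, above other members of that strength by 0.32, 0.07, 0.20 and 0.47, by 0.31, 0.07, 0.21 and 0.46 within strength and CpG class, and by 0.06, 0.08, 0.09 and 0.17 by the deposited fold. Of the 40 regions, 0 were at least 1.5-fold lower after Oxali, 24 after Cispl, 2 after IFNγ and 14 after the combination. The Cispl list thus held most of the lower ones. The region shared by Hist2h2aa2 and Hist2h3c2 stood at the low end of the list, with pileups of 3234, 2069, 2180, 1583 and 1819. It was not the lowest with Cispl, where its log2 ratio lay above the lower quartile of the histone regions, -0.83. Histone genes have close copies and lie side by side, so counts per gene are uncertain.

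Lists of cell growth and upkeep were mostly low, as strong regions were. Of 44 replication genes, which load and run the DNA helicase and polymerases, 18, 34, 25 and 40 of 44 were at least 1.5-fold lower (40.9%, 77.3%, 56.8% and 90.9%), and of 30 mitosis genes 16, 24, 16 and 28 (53.3%, 80%, 53.3% and 93.3%). Mcm4, a helicase subunit, had pileups of 2274, 1217, 1212, 913 and 842, and Bub1, a spindle checkpoint kinase, 687, 308, 425, 328 and 230. The control was highest for both, and Oxali + IFNγ lowest. Splicing factors (45 of 48 genes) had 27, 36, 29 and 45 lower, the proteasome (37 of 39) 19, 25, 20 and 35, and the respiratory chain (90 of 97) 36, 62, 51 and 87. Replication genes were at departures of -0.03, -0.02, -0.05 and -0.06, or -0.01, -0.01, -0.02 and 0.00 within strength and CpG class, and by the deposited fold at -0.08, -0.08, -0.02 and -0.06. Mitosis genes were at -0.11, -0.05, -0.07 and -0.13, or -0.08, -0.04, -0.02 and -0.06 with CpG class, and by the deposited fold at -0.15, -0.14, -0.02 and -0.08. Splicing factors were at -0.18, -0.19, -0.15 and -0.34, or -0.13, -0.16, -0.08 and -0.27 within strength and CpG class. By the deposited fold splicing factors were at -0.01, -0.09, -0.03 and -0.06. The proteasome was at departures of -0.13, -0.05, -0.08 and -0.25, or -0.11, -0.05, -0.08 and -0.21 with CpG class, and by the deposited fold at 0.00, -0.03, -0.04 and -0.05. The respiratory chain was at -0.09, -0.08, -0.10 and -0.22, or -0.04, -0.04, -0.05 and -0.12 with CpG class, and by the deposited fold at -0.01, -0.03, -0.04 and -0.06. The deposited fold thus gave smaller departures for splicing, the proteasome and the respiratory chain, and larger ones for replication and mitosis with Oxali and Cispl. Cholesterol synthesis, at a control level of 149, had 18, 20, 10 and 21 lower of 21 (85.7%, 95.2%, 47.6% and 100%). Its departures were -0.16, -0.15, -0.03 and -0.19, or -0.15, -0.14, 0.00 and -0.08 with CpG class and 0.03, -0.05, -0.01 and -0.04 by the deposited fold. Srebf2, the transcription factor that drives this pathway, had 1770, 906, 971, 763 and 664.

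Start sites in the pathways that the treatments address were read in the same way. Of 28 regions at targets of p53, the factor activated by DNA damage, 0 were at least 1.5-fold higher in any list and 17, 23, 16 and 23 were lower, with departures of -0.09, -0.08, -0.12 and -0.09 within the class of strength, -0.05, -0.02, -0.04 and 0.05 with CpG class and -0.08, -0.04, -0.06 and -0.11 by the deposited fold. Bax, which promotes apoptosis, had pileups of 760, 390, 478, 230 and 286, and Fas, a death receptor, 245, 313, 232, 145 and 319. Fas was above its control level with Oxali and Oxali + IFNγ (log2 0.46 and 0.29) and below it with Cispl and IFNγ (-0.26 and -0.42).

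Interferon response genes were near the middle of the members, at -0.23, -0.41, -0.42 and -0.35, with 5, 4, 0 and 6 of 36 regions at least 1.5-fold higher and 7, 14, 8 and 16 lower. Within their class of strength they were above other members by 0.16, 0.10, 0.10 and 0.24, and with CpG class by 0.17, 0.10, 0.09 and 0.27, but below by -0.06, -0.04, -0.05 and -0.04 with the deposited fold, so no direction can be given. The highest was the region beside Ifit1, an antiviral protein that binds foreign RNA, and Ifit1bl2, whose start lies nearest to the summit, with pileups of 104, 242, 248, 99 and 352 and log2 ratios of 1.33, 1.07, 0.26 and 1.67. It was high in the 3 lists with platinum and near control with IFNγ alone. The lowest was Ifngr1, a chain of the IFNγ receptor, with 2133, 937, 945, 983 and 897, or -1.08, -1.36, -0.78 and -1.34.

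Class I antigen presentation (23 genes in 22 regions) had medians of -0.52, -0.64, -0.51 and -0.81, with 0, 0, 0 and 1 region at least 1.5-fold higher and 11, 12, 6 and 14 lower. Their departures within the class of strength were -0.08, -0.07, 0.04 and 0.08, with CpG class -0.07, -0.05, 0.03 and 0.00 and by the deposited fold -0.01, -0.08, 0.02 and 0.00, and the 6 lower with IFNγ were 27.3% of the list. The higher one was Tapbpl, an editor of the peptides on class I molecules, with 211, 245, 331, 162 and 377 and log2 ratios of 0.32, 0.47, -0.05 and 0.75. The lowest was the region of Rfxank, a factor that binds class I and II promoters, shared with Borcs8, at 1711, 676, 808, 637 and 513. Of 23 NF-kB pathway regions 1, 1, 0 and 1 were higher and 8, 17, 11 and 18 lower, with departures of 0.02, 0.00, 0.02 and 0.04, or 0.03, 0.01, 0.04 and 0.06 with CpG class and -0.05, -0.06, 0.07 and 0.00 by the deposited fold. The higher one, Traf1, a signalling adaptor of tumour necrosis factor receptors, had 69, 226, 187, 34 and 219, so 1.82, 1.26, -0.69 and 1.58. The AP-1 family, whose motif went with higher levels, had strong promoters of its own (control level 153) that were low, at -0.71, -0.89, -0.61 and -1.31, with 11, 13, 7 and 13 of 14 at least 1.5-fold lower. Its departures were -0.15, -0.14, -0.03 and -0.27, or -0.12, -0.12, 0.00 and -0.24 within strength and CpG class, and -0.04, -0.08, -0.08 and -0.14 by the deposited fold.

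The share of genes with a member differed between the remaining lists. Of 49 keratin genes 10 had a member, with 2, 2, 0 and 2 higher and 4, 5, 1 and 4 lower. Their departures were -0.21, -0.43, 0.36 and 0.18, and -0.34, -0.53, 0.25 and -0.08 with CpG class and -0.17, -0.20, 0.01 and -0.06 by the deposited fold, so with the combination the sign turned. Krt16, a keratin of stressed epithelium, had 183, 428, 399, 166 and 590, or 1.33, 0.94, 0.19 and 1.60. Solute carriers (206 of 334 genes, 205 regions) had 15, 12, 0 and 13 higher and 44, 103, 71 and 122 lower (21.5%, 50.2%, 34.6% and 59.5%), at departures of 0.01, 0.02, 0.02 and 0.00. Zinc finger genes of the Zfp series (310 of 391, 306 regions) had 6, 2, 0 and 3 higher and 57, 164, 120 and 183 lower (18.6%, 53.6%, 39.2% and 59.8%), at departures of -0.01, -0.05, -0.03 and -0.05. Of 39 Hox genes, 16 had a member, and their 15 regions included 2, 6, 1 and 8 lower ones (13.3%, 40%, 6.67% and 53.3%, beside 20.1%, 36.3%, 31.7% and 44.8% of all members). The regions were of middling strength, with a median control level of 26.2, and 60.0% were CpG-rich. Their departures were -0.24, -0.42, 0.02 and -0.40 within the class of strength, -0.28, -0.30, 0.06 and -0.29 with CpG class and -0.28, -0.32, 0.02 and -0.32 by the deposited fold. Hox genes, which set position along the body axis, thus stood below members of equal strength in the 3 lists with platinum and near them with IFNγ.

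**Figure D4:**
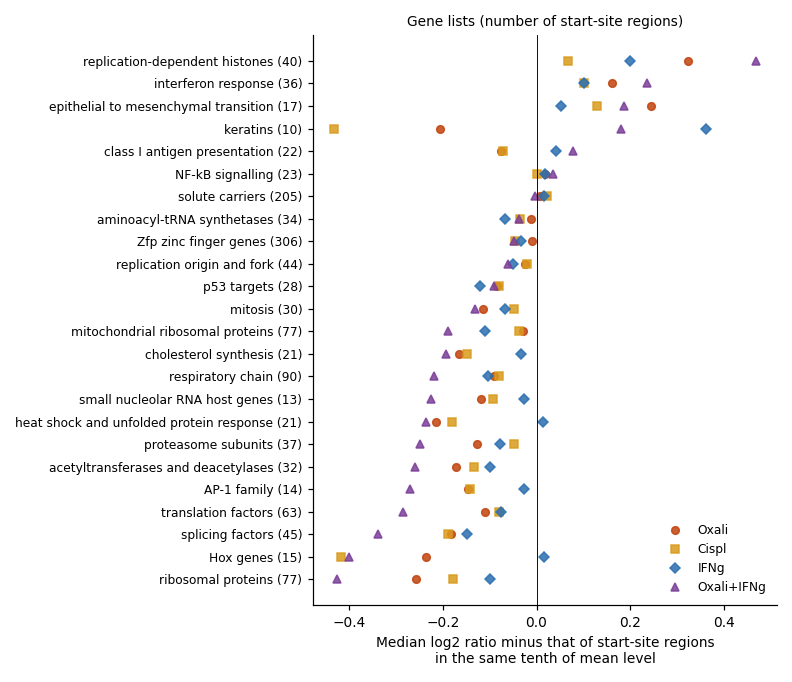
Median departure (log2 ratio of the treated to the control level minus that of start-site regions in the same class of mean level) for the regions of 24 of the 25 gene lists (the other is not reported here), 1 point per treatment, with the number of regions in brackets and a line at 0. Ribosomal proteins reach -0.43 and replication-dependent histones 0.47 with Oxali + IFNγ, while several lists between them lie near 0.

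Single regions at the ends of a ranking were chosen for their ratios, so that which lists are high or low in them follows largely from the choice. They were ranked by their departure from the median of all members, averaged over the 3 lists with platinum, among members with a mean pileup of at least 100. At the low end, 6 of 8 regions were CpG-rich and 5 lay at the first start of their gene. Csnk1g2 (chromosome 10, 80621916 to 80623051), which encodes a casein kinase, had levels of 152 in untreated cells, 70.4 after Oxali, 65.6 after Cispl, 57.3 after IFNγ and 28.4 after the combination. Each single agent stood well under the control, and the combination lower again, at a log2 ratio of -2.42. Usp28 (chromosome 9, 48984338 to 48985889), a deubiquitinase, had levels of 178, 82.1, 80.8, 57.4 and 32.9. The combination was at 0.166 to 0.205 times the control by the counting interval, a log2 ratio of -2.44.

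Vps26a (chromosome 10, 62485830 to 62487536), a subunit of the retromer that returns proteins from endosomes, had levels of 127, 54.8, 57.5, 38.9 and 26.2. It shared the order seen at Csnk1g2 and Usp28: control highest, platinum between, IFNγ lower, the combination lowest. The log2 ratio with IFNγ alone was -1.71. Ccdc9 had pileups of 2180, 957, 1116, 600 and 479.

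The other 2 of the low end were CpG-poor and did not follow that order. Foxj2, a forkhead transcription factor, had pileups of 304, 72, 190, 123 and 86 at an internal start (chromosome 6, 122826290 to 122826918). It was lowest after Oxali and after the combination, at log2 ratios of -1.97 and -1.91, and at -0.86 after Cispl. Snx32, a sorting nexin, had 282, 78, 150, 207 and 82, and its IFNγ value was the nearest to control.

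At the high end, all 8 regions were CpG-poor and weak in control cells, with levels of 2.06 to 5.11, and 0 lay at the first start of a protein-coding gene. The low control levels follow from the choice, since with control pileups of 25 to 62 these regions passed the limit on the mean pileup only through the lists with platinum. Pfkl (chromosome 10, 77991127 to 77992368) encodes a phosphofructokinase of glycolysis, and the region lies in an intron at a start 17907 bp into the gene. Its levels were 5.11 in untreated cells, 35.6 after Oxali, 28.9 after Cispl, 2.91 after IFNγ and 40.7 after the combination. It was high in each list with platinum and low without, and the ratio to control was 5.32 to 9.26 with Oxali and 6.11 to 10.5 with Oxali + IFNγ by the counting interval.

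Tchp (chromosome 5, 114718663 to 114719589), which encodes a protein of keratin filaments and centrioles, had levels of 5.11, 46.2, 17.8, 6.96 and 47.9 in an intron. Here Cispl lay apart from the lists with Oxali, with ratios of 2.63 to 4.68 against 6.94 to 12. Cryaa, a lens crystallin, had pileups of 25, 164, 194, 27 and 203, and the region shared by Ctu2, which modifies transfer RNAs, and Piezo1, a stretch-activated channel, had 39, 276, 294, 43 and 270. Pot1a, a telomere protein, had 42, 218, 381, 30 and 256, with the summit 1088 bp from a start that lies 63050 bp into the gene. In these the 3 lists with platinum were high, and IFNγ lay near Ctrl. The other 3 of the 8 lay beside starts with no protein-coding gene.

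Ranked instead against members of equal strength, 3 of the 8 highest and 2 of the 8 lowest stayed among the 8. The highest was then Slc13a4 (chromosome 6, 35287741 to 35289264), a sulfate transporter, with levels of 12.9, 93.5, 53.5, 10.3 and 92.1 at a start 19957 bp into the gene. Oxali alone was at 6.11 to 8.61 times control by the counting interval. Il2rb, a chain of the interleukin-2 receptor, had pileups of 104, 630, 366, 135 and 822, and Cep131, a centrosomal protein, 67, 350, 595, 40 and 348. Cep131 was highest with Cispl, and the other two with Oxali and Oxali + IFNγ. Hey2, a target of Notch, was among the lowest, with 300, 114, 149, 114 and 109. The copies Rnu1b1 and Rnu1b2 of the U1 small nuclear RNA also entered, but reads cannot always be placed among near-identical genes.

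**Figure D5:**
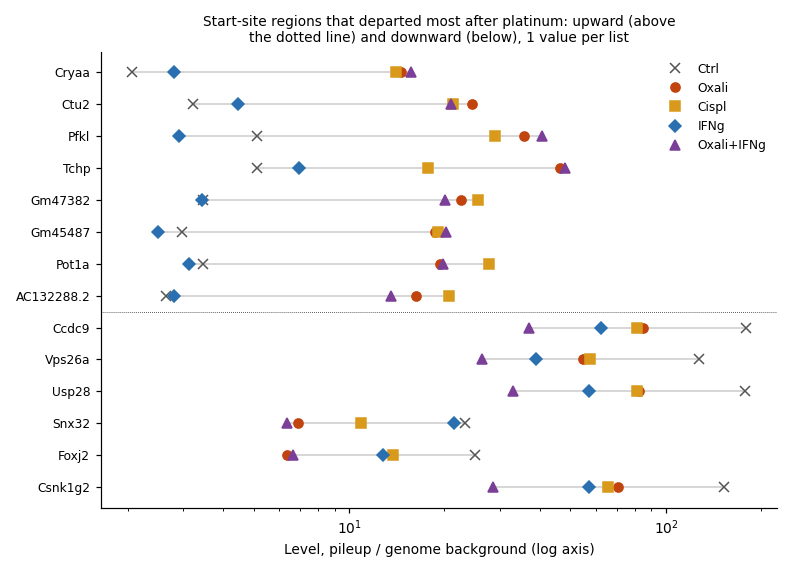
Level (log axis) in each of the 5 lists for regions among the 8 furthest above and the 8 furthest below the general level over the 3 lists with platinum, those above on top of the dotted line. Pfkl goes from 5.11 in Ctrl to between 28.9 and 40.7 with platinum and Usp28 from 178 to 32.9 with Oxali + IFNγ; each point is 1 list and has no replicate.

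With IFNγ, few regions were higher. Nfe2l1, a transcription factor for proteasome genes, had an intronic region (chromosome 11, 96822638 to 96823200) with levels of 13.3 in untreated cells, 13.3 after Oxali, 19.5 after Cispl, 36.2 after IFNγ and 12.1 after the combination. The IFNγ list alone stood out, at 2.26 to 3.31 times control, and the combination did not share it. Gtf2h2, a subunit of the transcription and repair factor TFIIH, had levels of 8.81, 15, 10.0, 22.1 and 21.1 (chromosome 13, 100461248 to 100462039). Both lists with IFNγ were high there, at log2 ratios of 1.33 and 1.26, and Oxali was at 0.77. The other 2 of the 4 highest, Gm39164 and Gm38356, are a non-coding RNA and a pseudogene.

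At the low end with IFNγ stood Tanc1, a synaptic scaffold protein, with pileups of 195, 127, 194, 43 and 94 and a log2 ratio of -1.85 with IFNγ, with the region of Marf1 and Mir484 and Vps26a also among the 4 lowest. Marf1, an RNA-binding protein of the germ line, had pileups of 1992, 1020, 981, 463 and 400. It was also the region where adding IFNγ to Oxali went with the lowest ratio, at -1.55, followed by the region of Maz and Kif22 with 1967, 1411, 1407, 533 and 573 (-1.50) and Scaf1, a factor linked to splicing, with 2152, 1284, 1259, 759 and 540 (-1.44). In these 3, both lists with IFNγ were low. At the opposite end Spef2, a sperm tail protein, had 137, 73, 169, 73 and 164 (0.97), Rptoros, an antisense RNA, 116, 93, 137, 48 and 207 (0.96), and Lrrc36 83, 83, 160, 62 and 180 (0.92).

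The platinum drugs, which share the metal and differ in the ligands it carries, were given at the same concentration and time, and 3 regions at each end were compared without a test. Higher with Cispl were Pigk, a subunit of the enzyme that attaches lipid anchors to proteins, with pileups of 75, 139, 430, 33 and 113 (log2 ratio of Cispl to Oxali 1.34), Treh, which splits trehalose, with 74, 70, 216, 65 and 107 (1.34), and the small RNA Gm26008 with 112, 113, 358, 36 and 104 (1.38). That Cispl is the highest list in all 3 follows largely from the choice, which took the highest ratios of Cispl to Oxali among members with a mean pileup of at least 100. Lower with Cispl was Slco1a5, a transporter of organic anions, with 158, 418, 152, 104 and 493 (-1.75). There Oxali and Oxali + IFNγ were high and Cispl lay near control. Gm16519 (44, 185, 72, 49 and 188) shared this order, whereas Gm23143 was low with Cispl alone (428, 513, 207, 482 and 492).

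The strongest and the longest members were single cases. Eda2r, a receptor gene on chromosome X, was among the 5 strongest, with pileups of 5806, 5939, 6317, 3868 and 5382. Its Cispl list was the highest before and its Oxali list after scaling for depth, at levels of 459 and 527 against 478 in Ctrl. Cnot4, a ubiquitin ligase of the deadenylase complex, had 4722, 2808, 2878, 2361 and 2196 and was low in every treated list. Also among the 5 were the pseudogenes Gm13340 and Gm10060. Fam53b (3398 bp) and Ppp2r3d (3215 bp) were among the 3 longest.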

How the data were processed

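Per the labels and the methods of the study, ATAC-seq libraries of Myc-CaP cells were processed with the ENCODE ATAC-seq pipeline: adapters were removed with cutadapt, reads were aligned to mm10 with Bowtie2 2.2.8, improper, poorly mapped and duplicate reads were removed, and the reads of both replicates of a group were pooled. The authors called peaks with MACS2 2.1.0 and dropped those in blacklisted sequence. Each deposited list gives per summit a position, the fold (a ratio of 1 more than the pileup to 1 more than the local background), a −log10 p-value and a −log10 q-value, all as the authors' caller wrote them. The authors' tests per replicate were not used here. No column of values was left without a group (0).

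For every summit a whole-number pileup and a background were sought that return both deposited values, with −log10 p matched within 0.01. This succeeded for 100% of summits in each list and was checked on simulated data. The level of a region was its highest pileup divided by the background of that list over the genome, and no pseudocount was added, since every member has a call in each list. Depth, given by that background, sets the counting error and may also decide which weak regions are called in every list. Regions were sorted into 10 classes of mean level. Motif differences were means over classes with at least 20 regions on either side. Intervals of a ratio were 95% Clopper–Pearson intervals of one pileup among both, scaled by the backgrounds.

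Named regions were the 8 highest and 8 lowest by mean departure from the member median over Oxali, Cispl and Oxali + IFNγ, the 4 at each end for IFNγ, the 3 at each end for Cispl and for Oxali + IFNγ against Oxali, the 5 strongest in control, the 3 longest, and the ends of each gene list, among members with a mean pileup of at least 100. The members, gene lists and motifs were chosen with earlier results of these data known. Some regions that this rule selects are not reported here. Genes and starts came from GENCODE M21 and sequence from GRCm38. Alternatives were other scalings, the deposited fold, the pileup minus the local background, the summit nearest to the control summit (within 150 bp), calls with q at most 0.01, a window of 250 bp, protein-coding starts, a pileup filter and the control level as the axis of strength. Python 3.11.15, NumPy 2.4.6, pandas 2.3.3, SciPy 1.17.1 and Matplotlib 3.10.9 were used.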

Additional observations from a re-analysis of the deposited data

How the results depend on the processing

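No paired analysis was possible because both libraries of a group were pooled before peaks were called, and for the same reason leaving out a library could not be run. The median log2 ratio of members was below 0 for all 4 treatments under every alternative, and of 112 recomputed medians, counts and differences 50 moved little and 62 moved more. Values are given in the order Oxali, Cispl, IFNγ and Oxali + IFNγ. The medians were -0.51, -0.58, -0.24 and -0.74 when scaled to regions away from start sites, -0.36, -0.22, -0.77 and -0.38 with unscaled pileups, -0.17, -0.28, -0.24 and -0.29 by the deposited fold, -0.28, -0.44, -0.47 and -0.52 with the local background subtracted, and -0.26, -0.41, -0.44 and -0.50 at the summit nearest to the control summit. Over the 15337 members within 250 bp they were -0.35, -0.53, -0.48 and -0.69, over 13968 at starts of transcripts that are themselves protein-coding -0.38, -0.56, -0.50 and -0.74, and over 17113 with a mean pileup of at least 100 -0.31, -0.49, -0.46 and -0.61. Counts at least 1.5-fold higher were 1521, 1255, 128 and 1627, then 1071, 880, 89 and 1148, and 1773, 1259, 101 and 1772 in these last 3 subsets, which hold fewer regions. Scaled to regions away from start sites, 1719 were higher with Oxali, 652 with IFNγ and 1869 with Oxali + IFNγ, and 8770 were lower with Oxali and 2817 with IFNγ. Unscaled, 6072 were lower with Oxali, 4148 with Cispl and 13830 with IFNγ, and 59 higher with IFNγ. By the deposited fold 923, 2061, 1889 and 4080 were lower, so that with Oxali the 1846 higher members outnumbered the lower ones, the opposite of the main balance of 2702 and 4030, and with the local background subtracted 545 were higher with IFNγ. With classes of control level in place of mean level, the strongest minus the weakest class was -1.27, -1.51, -0.65 and -1.91. Shifts between scalings follow from their construction, and for the other settings the cause was not tested.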

Other observations

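On the main scale, a few strong CpG-rich start-site regions stood above control. Of 6571 CpG-rich members in the 4 strongest classes, 184 (2.80%) were above control after Oxali, 9 (0.137%) after Cispl, 7 (0.107%) after IFNγ and 24 (0.365%) after the combination, and 3 were above it in every list with platinum. The following were chosen after their values were seen. Smarca2, a chromatin remodelling ATPase, had pileups of 833, 1382, 1109, 587 and 1337 in Ctrl, Oxali, Cispl, IFNγ and Oxali + IFNγ, with log2 ratios of 0.84, 0.23, -0.17 and 0.59. Dusp4, a phosphatase that turns off MAP kinases, had 689, 967, 797, 369 and 939, or 0.60, 0.03, -0.57 and 0.36. Csf1, the growth factor of macrophages, had 692, 716, 839, 527 and 974, or 0.16, 0.10, -0.06 and 0.40. In these, on the main scale, the platinum lists were at or above control and IFNγ was below it. Scaling to regions away from start sites shifts the ratios by -0.26, -0.17, 0.19 and -0.27. Of these regions, only Smarca2 then stays above control in each list with platinum, and only Dusp4 below it with IFNγ.

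The 490 members on chromosome X had the lowest median log2 ratio of any chromosome with Cispl, -0.59 against -0.49 to -0.28 on the 19 autosomes. Without regard to strength, X lay inside the autosomal range with Oxali (-0.33 against -0.34 to -0.14) and IFNγ (-0.46 against -0.47 to -0.37) and below it with Oxali + IFNγ (-0.66 against -0.61 to -0.31). Relative to members of equal strength X was below every autosome in all 4 lists. The X departure was -0.11 after Oxali, where the lowest autosome was at -0.05, -0.24 after Cispl (-0.07), -0.06 after IFNγ (-0.04) and -0.17 after the combination (-0.12). There is 1 list per group, so these differences were not tested.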
